A study of Homo sapiens with 12 samples.

Results

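The mitochondrial ribosomal protein genes are described here in MDA-MB-453 cells after androgen treatment. Members were taken by symbol: every protein-coding gene in the authors' deposited comparison table whose name starts with MRPL or MRPS and a number. The rule gave 76 genes of the 14559 in that table, 11254 of which are protein-coding, with 48 members named for the large subunit (MRPL) and 28 for the small subunit (MRPS). No measured value entered the choice, although a gene had to be listed in that table to count. MRPL53 and MRPS24, which carry such symbols in the count table, fell outside it. MRPL53 lay between 0 and 0.240 CPM (counts scaled to a common library total) and was not tested, and MRPS24 lay between 0.147 and 1.07 CPM.

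Mitochondria keep a small genome whose messenger RNAs encode core subunits of the respiratory chain, and they translate them on ribosomes of their own. The ribosomal RNAs of these particles come from the mitochondrial genome, while all their proteins are encoded in the nucleus, made in the cytosol and imported. Some of the proteins have counterparts in bacterial ribosomes and others are found only in mitochondria, and the output of the set is often raised in growing tumour cells.

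The 6 DHT libraries came from cells given 10 nM dihydrotestosterone (DHT, a potent natural androgen) for 6 h, and the 6 Vehicle libraries from cells given 0.001% ethanol for the same time. MDA-MB-453 is an established human breast cancer line with high ERBB2, and all cells had spent 72 h in high-glucose medium supplemented with 10% serum, which itself carries hormones. Replicates are described in the labels as successive passages of the line, so they are cultures of 1 line and not of separate tumours. The series title concerns AP-2β and the identity of hormone-sensing mammary cells, and the comparison asks which genes respond to androgen in such a line.

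Library totals ran from 4346465 to 25678781 counts, and after TMM scaling of these totals 1 count was worth 0.0456 to 0.214 CPM. The line's markers were present, with ERBB2 at 581 to 2165 CPM and TFAP2B at 457 to 626 CPM, while ESR1 stayed at or under 0.641 CPM. The endothelial marker PECAM1 stayed at or under 0.959 CPM and the leukocyte marker PTPRC at or under 0.214 CPM, whereas the collagen gene COL1A1 lay at 56.1 to 106 CPM. Both replicate 2 libraries stood apart on the first principal component (51.1% of the variance), and Vehicle replicate 5 lay farthest out among Vehicle libraries on the second (15.7%).

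The members are scattered over 21 chromosomes, with 8 each on chromosomes 1 and 17 and 7 on chromosome 11. Promoter sequences from RefSeq on GRCh38.p14, running from 250 bases before to 50 bases after the start, were matched by symbol for 67 of the 76 members. The letters of 5 motifs known from promoters of housekeeping and mitochondrial genes were looked for on both strands. The letters AAGATGGC, the core bound by YY1, stood in 19 member promoters, or 28.4%, against 3.03% of 27305 promoters in the table. The letters CCGGAAGT, an ETS-family site that GABP can bind, stood in 10, or 14.9%, against 4.44%. The NRF1 core GCGCATGC stood in 6, or 8.96%, against 3.27%. CACGTG, the E-box of MYC and its partner MAX, stood in 6, or 8.96%, against 7.43%, and CCAAT, the NFY site, in 20, or 29.9%, against 35.7%. None of these motifs contains another.

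The YY1 letters are shown because of where they lie: of 20 occurrences, 14 began within the first 50 bases after the start and 16 read in the direction of the gene. The letters contain the triplet ATG, and how many of them fall on a start codon was not tested. Their positions in promoters of other genes were not counted. The 6 windows of 30 bases have the letters in capitals and are written 5′ to 3′ on the strand of the gene (RefSeq, GRCh38.p14).
MRPL42, chr12:93467511-93467540, plus strand: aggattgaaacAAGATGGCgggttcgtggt
MRPL51, chr12:6493223-6493252, minus strand: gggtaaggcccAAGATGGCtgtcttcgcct
MRPS10, chr6:42217834-42217863, minus strand: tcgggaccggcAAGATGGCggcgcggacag
MRPS18A, chr6:43687764-43687793, minus strand: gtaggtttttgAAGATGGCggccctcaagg
MRPS18B, chr6:30617852-30617881, plus strand: gggcgtacgtcAAGATGGCggcgtctgtat
MRPL46, chr15:88467362-88467391, minus strand: tgggagaacgaAAGATGGCggcgcccgtaa
MRPL3 and MRPL47 are shown for the ETS letters, which begin 32 and 39 bases before their starts.
MRPL3, chr3:131502985-131503014, minus strand: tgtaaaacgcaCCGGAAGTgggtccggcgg
MRPL47, chr3:179604659-179604688, minus strand: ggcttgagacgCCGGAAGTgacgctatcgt
The median log2 fold change after DHT was 0.013 over the 19 members with the YY1 letters and 0.024 over the other matched members. It was -0.099 over the 10 with the ETS letters and 0.022 over the rest, and no test was made of either difference. A match to letters describes a sequence and shows no binding.

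With treatment as the only term and all 12 libraries, no mitochondrial ribosomal protein gene passed the test for a response to DHT. All 76 members were measured well enough to test, and edgeR's quasi-likelihood test at an adjusted p under 0.05 called 0 raised and 0 lowered. Over all 16355 genes tested it called 464, or 2.84%, of which 1.96% were raised and 0.880% lowered. At an unadjusted p under 0.05, 3 members were higher in DHT libraries and 0 were lower, against 6.59% and 5.41% of all genes. The 2 groups of libraries overlapped for every member, while 2.28% of all genes had all DHT libraries above all Vehicle libraries and 0.991% had them below. With DESeq2, 1 member (MRPS9) was called raised, where 3.12% of all genes were called raised, and with limma-voom 0 were called, against 2.80% of all genes. In bulk RNA a change per cell and a change in the fraction of expressing cells cannot be told apart.

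The median log2 fold change of the members was 0.0044, against -0.046 over all genes tested, and members ran from -0.42 to 0.35. Exactly 38 members lay above 0 and 38 below, while 41.8% of all genes lay above 0. Members named for the large subunit had a median of -0.006 with 23 above 0, and those named for the small subunit 0.014 with 15 above 0. This split follows the symbol, which need not give the place in the ribosome, as for MRPS18A. Under library totals alone the median of all genes moved to 0.012 and that of the members to 0.071, with 50 members above 0. The members' median lay 0.051 to 0.058 above that of all genes under the 4 scalings tried.

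The standard error of a member's log2 fold change ran from 0.10 to 0.39 with a median of 0.19. The 95% interval stayed within a 2-fold change in either direction for 74 of 76 members, and within a 1.5-fold change for 42. The widest intervals reached -1.09 for MRPL54 and 1.11 for MRPL12.

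**Figure D1:**
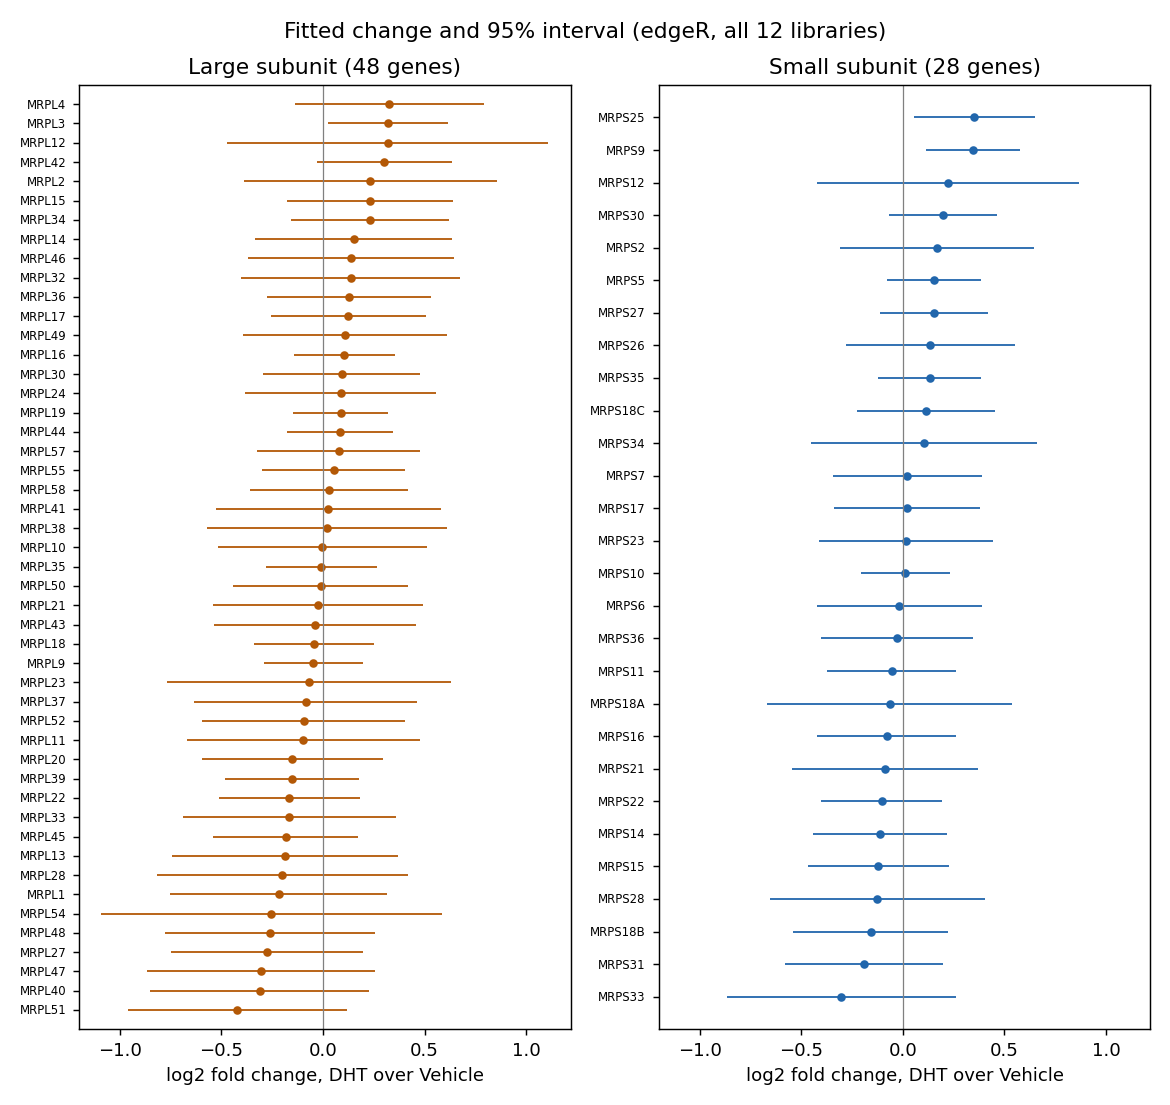
Log2 fold change of DHT over Vehicle (x axis) for each of the 48 members named for the large and 28 named for the small subunit. Points have 95% intervals from the edgeR fit of 12 libraries. They lie between -0.42 and 0.35, on both sides of 0 in both sets.

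In the authors' deposited table, 0 of the 76 members were called, where 619 of 14559 genes (4.25%) were. In the authors' deposited table the members' median log2 fold change was 0.050, against -0.027 over all 14559 genes. Members ranged there from -0.21 to 0.42, with 48 above 0. The lowest adjusted p in the authors' deposited table was 0.0831, for MRPL4.

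Closest to the threshold among members higher in DHT libraries was MRPS9, a small-subunit protein with a bacterial counterpart (chromosome 2, 105038069 to 105099960 on GRCh38). It had 33.9, 41.7 and 46.8 CPM as lowest, median and highest in DHT libraries, against 28.4, 31.8 and 38.3 CPM in Vehicle libraries. All DHT libraries except replicate 5 lay above every Vehicle library, and Vehicle replicate 5 was the highest of its group. The log2 fold change was 0.35 (SE 0.11, 95% interval 0.11 to 0.58, edgeR adjusted p = 0.136), with 6 of 6 DHT libraries above the Vehicle median.

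MRPS25, a small-subunit protein found only in mitochondria (chromosome 3, 15042460 to 15065317), had 58.1, 80.3 and 91.5 CPM in DHT libraries, against 43.9, 65.8 and 70.7 CPM in Vehicle libraries, as lowest, median and highest. The lowest library of each group was replicate 2, and the other 5 DHT libraries lay above every Vehicle library. Its log2 fold change was 0.35 (SE 0.14, edgeR adjusted p = 0.287), with 5 of 6 DHT libraries above the Vehicle median. Without both replicate 2 libraries MRPS25 passed (1 member raised, where 3.70% of all genes were), and the members' median was -0.035.

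MRPL3, a large-subunit protein whose bacterial counterpart lies near the catalytic centre (chromosome 3, 131462212 to 131502983), had 131, 139 and 165 CPM in DHT libraries, against 99.7, 106 and 169 CPM in Vehicle libraries. Vehicle replicate 5 alone, the highest of the 12 libraries, made the groups overlap. The log2 fold change was 0.32 (SE 0.14, edgeR adjusted p = 0.351), and 6 of 6 DHT libraries lay above the Vehicle median.

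MRPL42, found only in mitochondria (chromosome 12, 93467488 to 93516214), had 109, 120 and 133 CPM in DHT libraries, against 59.9, 97.9 and 138 CPM in Vehicle libraries. Vehicle replicate 5 was again the highest library and Vehicle replicate 2 the lowest, and the other libraries separated by group. Its log2 fold change was 0.30 (SE 0.15, edgeR adjusted p = 0.502), and 6 of 6 DHT libraries lay above the Vehicle median.

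Among members lower on average in DHT libraries, the 4 with the smallest p-values had 1 Vehicle library far above the rest. MRPL51, a protein of the large subunit found only in mitochondria (chromosome 12, 6491886 to 6493841), had 87.8, 100 and 112 CPM in DHT libraries, against 99.4, 103 and 289 CPM in Vehicle libraries. The value of 289 CPM was Vehicle replicate 5, and the other Vehicle libraries lay within the DHT range. The log2 fold change was -0.42 (SE 0.25, edgeR adjusted p = 0.611), and -0.04 without Vehicle replicate 5. MRPL40 is also found only in mitochondria, while MRPL47 and MRPL27 have bacterial counterparts. MRPL40 had a log2 fold change of -0.31 (edgeR adjusted p = 0.772), MRPL47 of -0.30 (adjusted p = 0.800) and MRPL27 of -0.27 (adjusted p = 0.773). Vehicle replicate 5 was the highest of the 12 libraries for each of the 3, at 147 CPM for MRPL40, 208 CPM for MRPL47 and 181 CPM for MRPL27. Without it their log2 fold changes were 0.04 for MRPL40, 0.08 for MRPL47 and 0.02 for MRPL27.

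The mean over members differed more between libraries of a group than between the groups. As the mean over members of log2 CPM less the gene's Vehicle mean, DHT libraries 1 to 6 lay at 0.04, 0.38, -0.00, 0.02, -0.07 and -0.09. Vehicle libraries 1 to 6 lay at -0.17, 0.15, -0.12, -0.32, 0.57 and -0.12. The highest library was thus a Vehicle one, replicate 5, in which 73 of 76 members stood above their own mean over 12 libraries, and the next was DHT replicate 2. The members together took 0.510 to 0.616% of counts in DHT libraries (median 0.538%), against 0.420 to 0.679% in Vehicle libraries (median 0.505%).

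**Figure D2:**
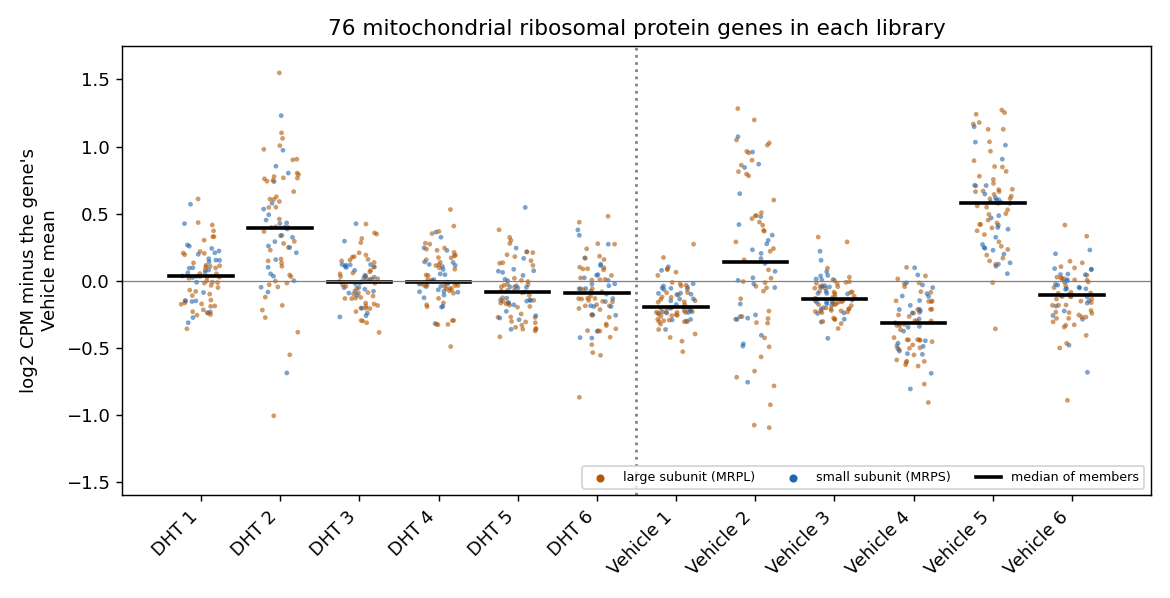
Log2 CPM of each of the 76 members less that gene's Vehicle mean (y axis), for DHT libraries 1 to 6 and Vehicle libraries 1 to 6 (x axis); points are genes, bars the median over members. Vehicle replicate 5 and DHT replicate 2 lie highest, Vehicle replicate 4 lowest.

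The spread between cultures was larger in Vehicle than in DHT libraries for 73 of 76 members, the exceptions being MRPS9, MRPL44 and MRPL30. The same count was not made over all genes, whose median spread was also larger in Vehicle libraries. The members' median SD of log2 CPM was 0.22 in DHT libraries and 0.44 in Vehicle libraries (n = 6 each), against 0.27 and 0.37 for all genes tested. For the 11862 genes within the members' range of average level it was 0.24 in DHT and 0.33 in Vehicle libraries. Without Vehicle replicate 5 the members' Vehicle value was 0.27, against 0.33 for all genes tested. Without Vehicle replicate 5 and both replicate 2 libraries, the members' medians were 0.11 in DHT and 0.14 in Vehicle libraries. For all genes tested they were then 0.16 in each group. No test was made of these spreads.

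Vehicle replicate 5 differed in more than the members. Transcripts encoded by mitochondrial DNA took 8.07% of its counts, against 3.03 to 5.66% in the other libraries. Cytosolic ribosomal protein genes stood 0.94 above their Vehicle mean on the log2 scale. They stood 0.70 above it in DHT replicate 2 and 0.59 in Vehicle replicate 2. Deviations in Vehicle replicate 5 ran against transcript length over 14559 genes (Pearson's r = -0.50 across genes, which are not independent). Over the 76 members r was -0.19. Over the 14559 genes r was also negative in DHT replicate 2 (-0.35) and in Vehicle replicate 2 (-0.26). The members are shorter than most genes, with a median transcript length of 1046 bases against 1520. The part of RNA composition in the members' values was not tested.

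Leaving out Vehicle replicate 5 shifted the whole set. The median of the members' log2 fold changes became 0.16, with 66 of 76 above 0 (44.8% of all genes), and 2 members passed the edgeR test, where 2.16% of all genes were called raised. These were MRPL3 (log2 fold change 0.46, adjusted p = 0.0117) and MRPS9 (0.40, adjusted p = 0.0462). Over all 24 alternatives the adjusted p ran from 0.00492 to 0.602 for MRPL3 and from 0.0049 to 0.403 for MRPS9. Leaving out DHT replicate 2 instead gave a median of -0.0995, with 21 of 76 above 0. The direction of the set's shift therefore rested on single libraries.

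**Figure D3:**
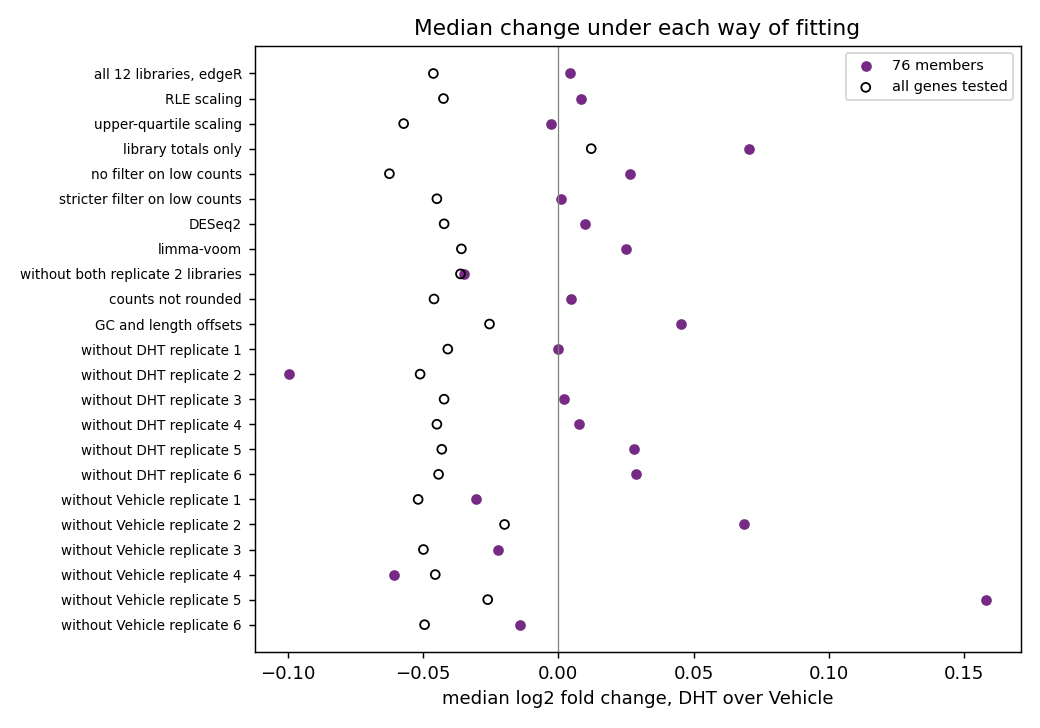
Median log2 fold change of DHT over Vehicle (x axis) over the 76 members (filled) and over all genes tested (open), for each way of fitting without a replicate term (rows). Members run from -0.10 without DHT replicate 2 to 0.16 without Vehicle replicate 5, while all genes stay between -0.063 and 0.012.

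In both replicate 2 libraries the members parted by base composition, and so, less strongly, did genes at large. Across the 76 members the deviation from the 12-library mean was correlated with the GC content of the gene. Pearson's r was 0.60 in DHT replicate 2 and 0.70 in Vehicle replicate 2, against -0.61 to 0.10 in the other libraries. Over all 14559 genes r was 0.31 in DHT replicate 2 and 0.53 in Vehicle replicate 2, against -0.42 to 0.03 in the others. Genes are not independent points. The 25 members of highest GC content (53.4 to 66.7%) averaged 0.68 above their means in DHT replicate 2, and the 25 of lowest (35.01 to 44.3%) 0.09. In Vehicle replicate 2 the same sets averaged 0.62 and -0.28. A fit with offsets for GC and length together was added after seeing the data, on the 14559 genes with both values. In it 4 members passed (MRPL3, MRPL4, MRPL34 and MRPS9), all raised, where 3.70% of all genes were called raised, and the members' median was 0.045. The parts of GC content and of length were not tested apart.

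**Figure D4:**
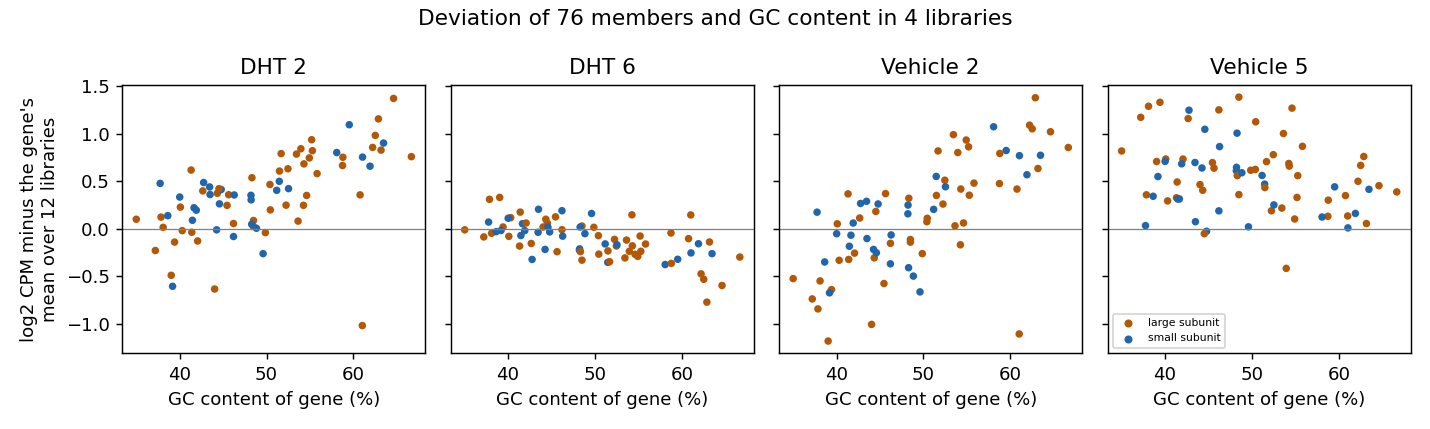
Log2 CPM less the gene's mean over 12 libraries (y axis) against GC content in percent (x axis) for the 76 members in DHT replicates 2 and 6 and Vehicle replicates 2 and 5. Both replicate 2 libraries slope upward (r = 0.60 in DHT and 0.70 in Vehicle), while most members lie above 0 in Vehicle replicate 5 at any GC content.

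MRPL12, MRPL54 and MRPL23 varied most between cultures, and they have GC contents of 62.5 to 64.6%. MRPL12, a stalk protein that also binds the mitochondrial RNA polymerase, had 21.8, 35.5 and 86.0 CPM in DHT libraries, against 19.9, 22.1 and 67.4 CPM in Vehicle libraries, with replicate 2 highest in each group. Its log2 fold change was 0.32 (SE 0.37, edgeR adjusted p = 0.873), and it was -0.040 without DHT replicate 2 and 0.66 without Vehicle replicate 2. MRPS10, MRPL19 and MRPS9, which all have bacterial counterparts, varied least. MRPS10 stayed at 38.7 to 43.5 CPM in DHT libraries and 35.98 to 50.8 CPM in Vehicle libraries.

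The other members of the stalk base behaved like the set. MRPL11 had a median of 71.9 CPM in DHT and 64.3 CPM in Vehicle libraries and a log2 fold change of -0.10, and MRPL10 71.4 and 64.6 CPM with -0.004. MRPL58, a hydrolase built into the large subunit that frees stalled chains, had 204 CPM in DHT and 192 CPM in Vehicle libraries as medians (log2 fold change 0.03). MRPS12, whose bacterial counterpart sits at the decoding centre, had 53.4 and 41.6 CPM (0.22, SE 0.30). MRPL44 and MRPS22, both linked to inherited mitochondrial disease, had log2 fold changes of 0.08 and -0.10. None of these passed the test, and the groups overlapped for each.

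MRPS18A, MRPS18B and MRPS18C are related proteins of which a ribosome holds each at a different place, MRPS18A in the large subunit despite its symbol. Their log2 fold changes were -0.06, -0.16 and 0.11, with adjusted p-values of 0.974, 0.867 and 0.900 (edgeR). MRPS18B was highest, with medians of 77.4 CPM in DHT and 78.8 CPM in Vehicle libraries, MRPS18A had 15.7 CPM in both groups, and MRPS18C had 12.5 CPM in DHT and 11.8 CPM in Vehicle libraries.

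Members differed widely in counts per length. How reads shared with copies or overlapping genes were counted is unknown, so the levels of single members are uncertain. On the scale of CPM per kilobase of gene length, MRPL41, a large-subunit protein found only in mitochondria, was highest, at 239 ± 72.4 in DHT and 235 ± 101 in Vehicle libraries (mean ± SD, n = 6 each). MRPL58 followed with 196 ± 46.8 and 192 ± 46.5 in DHT and Vehicle libraries, then MRPS34 with 137 ± 48.4 and 127 ± 52.2. The ranges of mean ± SD of these neighbours overlapped in each group. All were read in the same libraries, and their order within libraries was not tested. At the other end stood MRPL46, also found only in mitochondria, with 1.21 ± 0.281 in DHT and 1.10 ± 0.334 in Vehicle libraries, MRPL38 with 1.22 ± 0.342 and 1.21 ± 0.365, and MRPS18C with 2.52 ± 0.183 and 2.34 ± 0.556. The median member stood at 24.1 CPM per kilobase. Gene length in the count table spans all annotated exons; with the authors' transcript lengths the median was 59.1 and the leader changed. MRPS7 then led, at 327 in DHT and 322 in Vehicle libraries, with MRPL58 at rank 2, MRPL41 at rank 3 and MRPS34 at rank 7. MRPL38 and MRPL46 stayed lowest, and the ranks over all 76 members correlated at 0.833, with 8 of the top 10 shared.

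**Figure D5:**
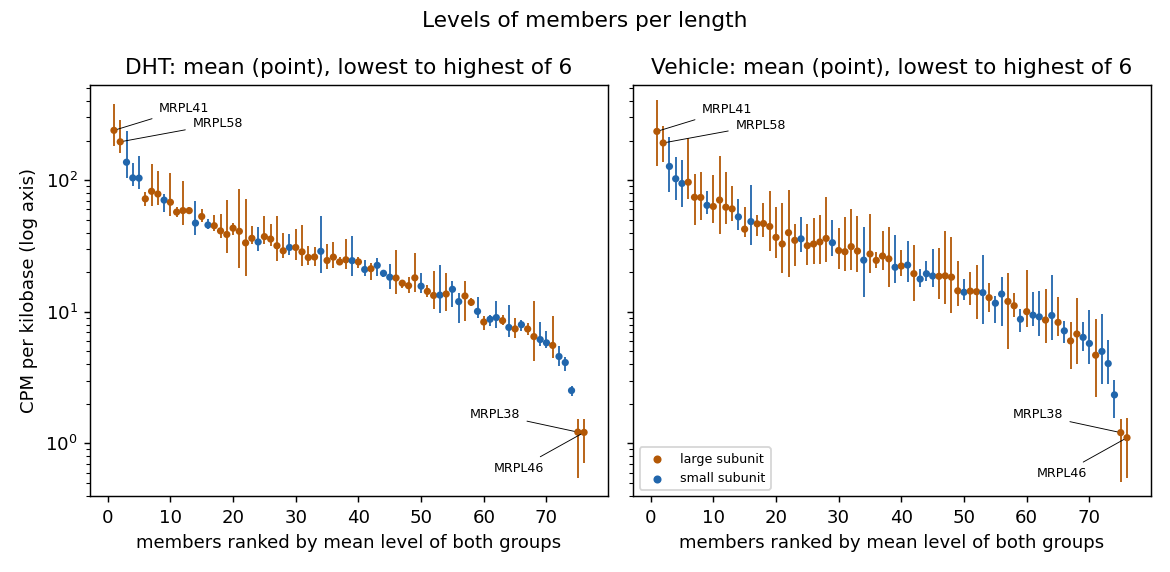
Level of each member in CPM per kilobase (y axis, log scale), ranked by its mean over both groups (x axis), in DHT libraries (left) and Vehicle libraries (right); points are means of 6 libraries and lines run from the lowest to the highest. MRPL41 leads at 239 in DHT and 235 in Vehicle libraries, and MRPL38 and MRPL46 are lowest at about the same level in both.

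A copy of a member did pass the test. MRPL3P1, a processed pseudogene of MRPL3, had 13.3, 14.2 and 17.4 CPM in DHT libraries, against 7.26, 10.1 and 11.8 CPM in Vehicle libraries, and the groups did not overlap. Its log2 fold change was 0.58 (SE 0.14, edgeR adjusted p = 0.0353). The call was lost without any 1 of 10 of the 12 libraries (adjusted p = 0.0629 to 0.0803), all but Vehicle replicates 2 and 5. Reads of 40 bases from MRPL3 may have been placed on it, and how far the 2 can be told apart was not tested. The other 7 pseudogenes and noncoding genes with MRP symbols did not pass.

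Among genes tied to the mitochondrial ribosome or to mitochondrial gene expression more widely, a few passed the edgeR test, which called 1.96% of all genes raised. At an unadjusted p under 0.05, 6.59% of all genes were higher in DHT libraries and 5.41% lower. Of 5 mitochondrial ribosomal proteins without an MRP symbol 0 passed by edgeR, DESeq2 or limma-voom, 0 had an unadjusted p under 0.05, and their median log2 fold change was 0.0016. Of 27 tested assembly and ribosomal RNA modification factors 1 was raised and 0 lowered (median 0.10), and of 18 translation factors 0 in either direction (median -0.01), with 2 higher at an unadjusted p under 0.05 and 1 raised by DESeq2. Of 20 genes of mitochondrial transcription and genome maintenance 1 was raised and 0 lowered (median 0.04), and of 13 regulators of nuclear genes for mitochondrial proteins 2 were raised and 0 lowered (median 0.02), with 5 higher at an unadjusted p under 0.05. Of the regulators, 4 were raised without both replicate 2 libraries or with GC and length offsets, and 1 without Vehicle replicate 5.

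TWNK, the replicative helicase of mitochondrial DNA, had 34.5 ± 3.50 CPM in DHT and 19.1 ± 2.00 CPM in Vehicle libraries (SD, n = 6 each), a log2 fold change of 0.86 (SE 0.11, edgeR adjusted p = 6.35e-04). RBFA, which helps mature the small subunit, had 40.6 ± 2.96 CPM in DHT and 31.0 ± 2.54 CPM in Vehicle libraries, with a log2 fold change of 0.39 (edgeR adjusted p = 0.0444). The regulators were MYC and PPARGC1B, a coactivator of mitochondrial gene expression. PPARGC1B had 21.7 ± 5.88 CPM in DHT and 9.81 ± 3.86 CPM in Vehicle libraries, with overlapping groups and a log2 fold change of 1.13 (SE 0.27, edgeR adjusted p = 0.0378). The RBFA call was lost without any 1 of 10 libraries (adjusted p = 0.0564 to 0.115), as was the PPARGC1B call without any 1 of another set of 10 (0.0567 to 0.0970).

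The other ribosome of the cell and the transcripts of mitochondrial DNA gave no calls with all 12 libraries. Transcripts of mitochondrial DNA were taken by symbol, and messenger RNAs were not set apart. Of 85 cytosolic ribosomal protein genes tested 0 passed by edgeR, DESeq2 or limma-voom and 0 had an unadjusted p under 0.05, and their median log2 change was -0.14. Without Vehicle replicate 5, 1 of them was raised and the median was 0.078. Of 27 transcripts of mitochondrial DNA 0 passed by edgeR, by DESeq2 or by limma-voom. At an unadjusted p under 0.05 (edgeR), however, 13 were lower in DHT libraries and 0 higher, against 5.41% and 6.59% of all genes. All 27 had a log2 fold change below 0, from -1.03 to -0.34. Their median log2 fold change was -0.65, and -0.36 without Vehicle replicate 5, the library with the largest share of such reads.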

How the data were processed

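Counts per gene were deposited by the authors. The submitters' processing notes name STAR, featureCounts and the build GRCh38; for versions, strand setting and multiply placed reads, nothing is given in the sources used here. Per the labels, 1 µg of RNA went into a total RNA kit and was read as 40 bp single ends, although the series' design text says poly-A. Of the nonzero values, 39.6 to 46.7% per library were not whole (tolerance 0.005), so they were taken as estimated counts as deposited and rounded before testing, although counts had been planned for. Non-whole values occurred in all 12 libraries for 7 members and in none for 5. Reads shared with pseudogene copies, overlapping genes or antisense genes are therefore uncertain. A record broken over 3 lines was left out, which left 60670 genes.

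The authors also deposited their own comparison, with log2 fold changes, p-values, adjusted p-values, transcript lengths and GC percent, per the file headers; no source used here gives its model.

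In R 4.3.3, genes passing filterByExpr (16355) were scaled by TMM and tested with edgeR 4.0.16 (quasi-likelihood, group only, Benjamini-Hochberg over all genes, threshold 0.05); the script was tested on simulated data. Log2 fold changes are DHT over Vehicle. CPM are counts over TMM-scaled totals, and log2 CPM used a prior count of 2. The SE of a log2 fold change is its size divided by the root of F. Library totals ran from 4346465 to 25678781 counts, and the intervals of fold changes include the spread between libraries. Other fits used other scalings and filters, unrounded counts, DESeq2 1.42.0, limma-voom (limma 3.58.1), a replicate term, offsets for GC and length (5 degrees of freedom per spline), and each library left out in turn. P-values measure the spread between passages of 1 line.

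The members, lists and tests were chosen with earlier results of these data known. Members named in the text had the 4 smallest p-values in each direction, the 3 highest and lowest levels per length, the 3 largest and smallest spreads, or a fixed role (26 in all); other genes were up to 2 called per list and direction. MRPL4, MRPL34, MRPL30, MRPL53, MRPS7, MRPS24 and MRPL3P1 fell outside this rule and were named after their values were seen.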

Additional observations from a re-analysis of the deposited data

Results flagged for a closer look

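In 24 of 62 groups of 6 libraries examined, 1 library stood far from the other 5 by Dixon's criterion at the 95% level. Each named gene and the member mean gave a group in DHT and a group in Vehicle libraries. By chance about 1 in 20 independent groups are flagged. These groups share the same 12 libraries, and some genes were named for their large spread, so the count cannot be set against that rate. The library standing apart was DHT replicate 2 in 15 groups, Vehicle replicate 5 in 6 and Vehicle replicate 2 in 3.

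In DHT replicate 2 the values were high for MRPL40 (77.4 CPM), MRPS34 (256 CPM), MRPL58 (320 CPM), MRPL41 (222 CPM), MRPL23 (36.03 CPM), MRPL12 (86.0 CPM), MRPL54 (71.1 CPM), MRPL11 (137 CPM), MRPL10 (127 CPM), MRPS18A (28.97 CPM), MRPS18B (121 CPM) and MRPS12 (114 CPM). They were low there for MRPL38 (1.84 CPM) and PPARGC1B (10.3 CPM). The mean over members was also highest there among DHT libraries, at 0.38 above the Vehicle mean on the log2 scale, with 0.04 next.

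Vehicle replicate 5 was high for MRPL3 (169 CPM), MRPL51 (289 CPM), MRPL40 (147 CPM), MRPL27 (181 CPM), MRPL47 (208 CPM) and MRPS22 (75.5 CPM). Vehicle replicate 2 was high for MRPL10 (145 CPM) and MRPS18A (34.96 CPM) and low for MRPL38 (1.71 CPM). The cause was not tested.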

How the results depend on the processing

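No alternative lowered a member. The count of members raised, 0 with all libraries, was 1 with DESeq2, 1 without both replicate 2 libraries, 4 with GC and length offsets, and 0 to 2 when single libraries were left out (2 without Vehicle replicate 5). The members' median log2 fold change ran from -0.10 to 0.16 over single libraries left out, with 21 to 66 members above 0. Over all genes, 320 raised and 144 lowered became 510 and 283 with DESeq2, 608 and 312 without both replicate 2 libraries, and 539 and 277 with GC and length offsets; 93 were lowered with library totals only and 90 with no filter. With single libraries left out, 189 to 434 were raised and 86 to 199 lowered. The raised count fell by over 1.5 times without DHT replicate 1 (189), 3 (195) or 6 (194) or Vehicle replicate 3 (208), and the lowered count without DHT replicate 1 (89), 3 (87), 4 (86) or 6 (86).

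Same-numbered libraries deviated together at r = 0.51, 0.87, 0.44, 0.26, -0.24 and 0.46 for replicates 1 to 6, and the nearest Vehicle library carried the same number for replicates 1, 2 and 4, so the numbers were not taken as pairs. With the replicate block 2 members were raised (MRPL4 and MRPS25), with 764 genes raised (4.67%) and 522 lowered in all. With the block and GC and length offsets, 8 members were raised, with 1283 (8.81%) raised and 994 lowered genes in all. The cause was not tested. Of 624 values for the named members, 613 kept their side of the threshold and 11 newly passed; none was called in the opposite direction, and 59 uncalled values in 18 of 26 genes changed sign. TWNK and MYC passed in all 24 alternatives.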
